A study of Arabidopsis thaliana with 18 samples.

Results

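Xyloglucan endotransglucosylase/hydrolases (XTHs) form 1 gene family in Arabidopsis thaliana, and XTH1 to XTH33 were taken by their 33 locus identifiers from the 32852 features listed in all 18 libraries. Poly(A) RNA was sequenced from root apices of about 0.5 cm of 2 wild-type ecotypes, Landsberg erecta (Ler) and Columbia (Col), after 7 days of seedling growth on medium with 500 µM phosphate, from 150 to 200 seeds sown per line. The groups were Ler at 0, 1 and 2 h and Col at 0, 1 and 2 h after the move to medium without phosphate, with 3 libraries each. The 0 h libraries carry the label of no treatment, whereas the protocol text has their seedlings moved to fresh medium that still held phosphate. No seedlings kept on phosphate for 1 or 2 h were analysed here, so phosphate removal, the transfer itself and the hour of sampling cannot be told apart.

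Xyloglucan is the main hemicellulose that coats and ties cellulose microfibrils in the primary wall of dicot plants. XTH enzymes cut a xyloglucan chain and join the new end to another chain (endotransglucosylase activity) or to water (hydrolase activity), and so loosen or rebuild the wall while cells elongate. In roots the family is known from the elongation zone and from growing root hairs, and several members respond within minutes to hours to touch, hormones and nutrient supply. In Arabidopsis, phosphate starvation slows elongation of the primary root, and the time course addresses the first hours of that response.

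All 33 members were listed in every library, and 28 passed the filter on low counts. The 5 that did not were XTH3 with 0 counts over all 18 libraries, XTH1 with 2, XTH6 with 3, XTH25 with 12 and XTH29 with 47. Total counts ran from 23755413 to 28031291 per Ler library and from 23451068 to 29277597 per Col library, so that 3 counts, the limit that a count of 0 allows, stood for 0.102 to 0.131 CPM (counts scaled to a common library size). CPM values are on library sizes scaled by the trimmed mean of M values (TMM), and they are divided by exon length (CPM per kb) where genes are compared with each other. Differences were tested with edgeR's quasi-likelihood test over all 20599 features that passed the filter, with Benjamini-Hochberg adjustment, and "rose" or "fell" is used for an adjusted p under 0.05. The labels number the libraries 1 to 3 in each group and do not say that they came from separate cultures, so p-values measure the spread between these libraries.

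The family's transcripts were concentrated in few members. XTH14, a root hair and root tip member, had the highest mean level at 216 CPM per kb and held 15.6% of the family's summed level per kb, followed by XTH18 with 159 CPM per kb (11.5%), XTH15 with 120.3, XTH8 with 103 and XTH17 with 97.2 CPM per kb. These 5 genes held 50.2% of the sum, and the 10 highest, which add XTH31, XTH19, XTH12, XTH30 and XTH4 at 63.8 to 79.2 CPM per kb, held 75.4%. At the low end of the tested members, XTH11, XTH7 and XTH2 averaged 0.414, 0.309 and 0.304 CPM per kb. Averaged within groups, XTH18 was above XTH14 at 1 h, at 158 against 138 CPM per kb in Ler and 229 against 195 CPM per kb in Col, with overlapping libraries. Levels of the leading members overlapped between libraries, so that the order among neighbours in this ranking is no more than the order of the means.

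**Figure D1:**
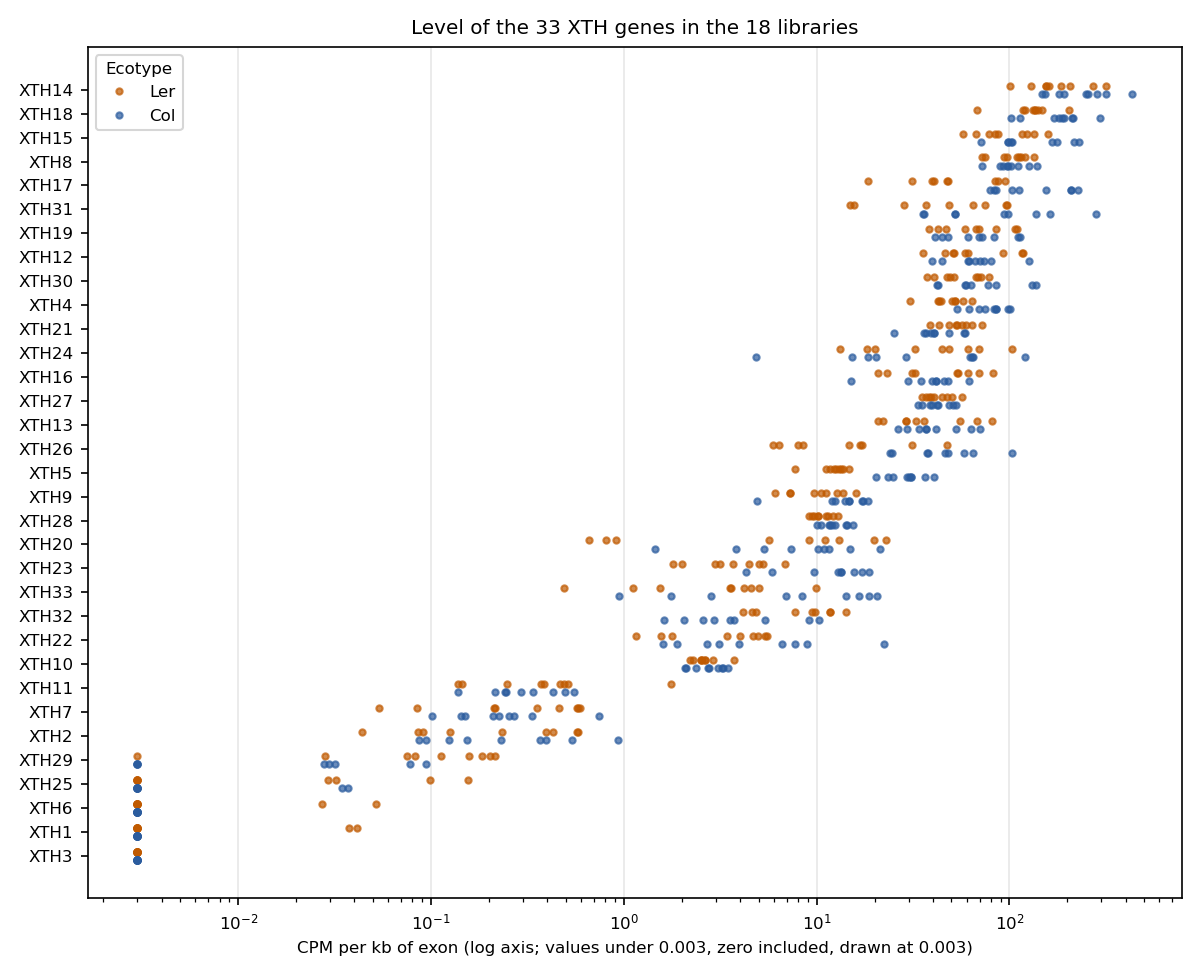
Level of each XTH gene in the 18 libraries, in CPM per kb of exon on a log axis, ordered from the highest mean (top) to the lowest; each point is 1 library, with Ler in orange and Col in blue, and values under 0.003 are drawn at 0.003. XTH14 to XTH4 form a group of 10 genes with mean levels of 63.8 to 216 CPM per kb, and XTH3 at the bottom had no counts.

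Summed over the family, the mean level per kb was lowest at 1 h in both ecotypes, but the libraries of 1 h and 2 h overlapped in both. The summed level was 1353 ± 116 CPM per kb in Ler at 0 h, 953 ± 186 at 1 h and 1272 ± 318 at 2 h. In Col the sum was 2082 ± 308 CPM per kb at 0 h, 1306 ± 402 at 1 h and 1357 ± 159 at 2 h (SD, n = 3 each). The 1 h libraries of Ler, at 771 to 1143 CPM per kb, lay below the 1246 to 1476 of Ler at 0 h, and those of Col, at 1027 to 1766, lay below the 1862 to 2434 of Col at 0 h. At 2 h the Ler libraries, at 906 to 1475 CPM per kb, overlapped those of Ler at 0 h, whereas those of Col, at 1255 to 1540, did not overlap those of Col at 0 h.

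Among the 28 tested members, more fell than rose at 1 h. In Ler at 1 h against 0 h 5 passed the test (17.9% of members, against 6.82% of all features). Of these 1 rose (4.26% of all features rose) and 4 fell (14.3% of members, against 2.55% of all features). In Col at 1 h against 0 h 8 passed (28.6%, against 11.1% of all features). Of these 2 rose (5.35% of all features) and 6 fell (21.4% of members, against 5.73% of all features). The median log2 change over the tested members was -0.34 in Ler and -0.64 in Col, beside -0.01 and 0.03 over all features. A fit of the contrasted libraries alone called 9 members in Ler (7.64% of all features) and 2 in Col (4.03% of all features) at 1 h, and DESeq2 called 8 in Ler (9.15% of all features). XTH17, XTH19 and XTH33 fell and XTH20 rose in both ecotypes. This adds no independent evidence of direction, because the list was drawn up with earlier results of these data known.

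At 2 h against 0 h, 4 members passed in Ler (14.3%, against 2.8% of all features), 2 of them higher (2.19% of all features were) and 2 lower (0.607% of all features were). In Col 6 passed (21.4%, against 6.39% of all features), 2 of them higher (2.93% of all features were) and 4 lower (14.3% of members, against 3.46% of all features). The median log2 change was -0.29 in Ler and -0.25 in Col, beside -0.03 and 0.01 over all features. Between 1 and 2 h, 2 members rose in Ler (7.14%, against 0.699% of all features, and 1.1% passed in either direction) and 2 in Col (7.14%, against 0.655%, and 2.23% passed in either direction). In edgeR 0 fell (0.403% of all features fell in Ler and 1.58% in Col), where 10 members in Ler and 5 in Col had an unadjusted p under 0.05 in either direction. XTH17 and XTH19 (lower) and XTH20 (higher) were the members that passed in all 4 comparisons with 0 h. The share of all features that did so is not given here.

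**Figure D2:**
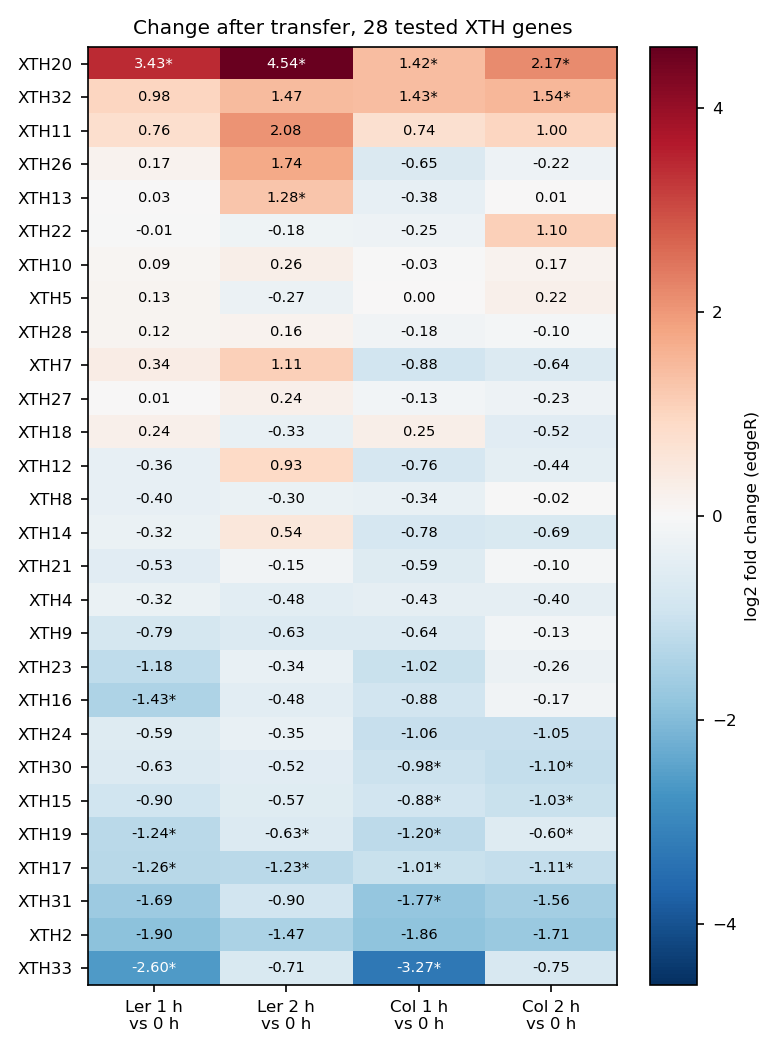
Log2 fold change of the 28 tested XTH genes at 1 h and 2 h against 0 h in Ler (2 left columns) and Col (2 right columns), from edgeR, with red for higher and blue for lower; asterisks mark an adjusted p under 0.05. XTH20 at the top rose in all 4 comparisons, XTH17 and XTH19 fell in all 4, and XTH33 at the bottom fell at 1 h in both ecotypes.

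XTH17, XTH18, XTH19 and XTH20 are close paralogs expressed in roots, with coding sequences 79.0% to 87.6% identical to each other. After transfer XTH20 rose, XTH17 and XTH19 fell, and XTH18 passed no comparison over time. Their windows of 250 bases before the annotated gene start are printed because these close copies include 1 gene that rose and 2 that fell. Capitals mark matches to 5 motifs searched on both strands, GNATATNC (P1BS, bound by PHR1-type phosphate starvation factors), CGCGTT (rapid stress response element), CACGTG (G-box), TTGAC (W-box core, bound by WRKY factors) and TGTCTC (auxin response element). The sequences are those of the RefSeq assembly TAIR10.1, read 5′ to 3′ on the gene's strand: XTH20 at chr5:19481647-19481896 on the plus strand, XTH19 at chr4:14830225-14830474 on the minus strand, XTH18 at chr4:14827212-14827461 on the minus strand and XTH17 at chr1:24256804-24257053 on the plus strand.
XTH20: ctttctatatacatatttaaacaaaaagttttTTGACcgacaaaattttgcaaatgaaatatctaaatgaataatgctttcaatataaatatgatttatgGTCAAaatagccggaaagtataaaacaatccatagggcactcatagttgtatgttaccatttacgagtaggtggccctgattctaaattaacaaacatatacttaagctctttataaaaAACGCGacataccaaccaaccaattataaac
XTH19: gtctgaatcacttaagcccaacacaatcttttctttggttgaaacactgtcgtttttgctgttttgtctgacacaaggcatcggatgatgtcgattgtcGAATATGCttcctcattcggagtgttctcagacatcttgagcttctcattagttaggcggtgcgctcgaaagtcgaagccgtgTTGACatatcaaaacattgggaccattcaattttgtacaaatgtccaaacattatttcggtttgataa
XTH18: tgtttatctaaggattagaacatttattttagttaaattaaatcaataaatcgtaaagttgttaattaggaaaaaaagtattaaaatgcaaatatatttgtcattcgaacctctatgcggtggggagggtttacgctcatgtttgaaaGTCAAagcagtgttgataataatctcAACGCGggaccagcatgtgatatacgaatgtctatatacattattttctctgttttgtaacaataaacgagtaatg
XTH17: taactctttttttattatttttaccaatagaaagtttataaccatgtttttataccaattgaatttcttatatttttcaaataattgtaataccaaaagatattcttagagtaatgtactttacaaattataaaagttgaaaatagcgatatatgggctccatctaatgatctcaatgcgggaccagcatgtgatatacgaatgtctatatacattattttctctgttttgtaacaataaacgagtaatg
The last 73 bases before the start are identical in XTH17 on chromosome 1 and XTH18 on chromosome 4, and no other protein-coding gene's window holds that run, since it was found in 2 of 26539 windows. XTH18 and XTH19 are neighbours on chromosome 4, and the longest exact run shared by their printed windows is 9 bases. For this pair, runs that cross the start and likeness with mismatches were not measured. Over windows from 250 bases before to 50 after the start, GNATATNC was in 2 of the 33 members (6.06%; XTH2 and XTH19), against 6.24% of all 26539 windows, and CGCGTT in 3 (9.09%; XTH13, XTH18 and XTH20), against 3.42%. TTGAC was in 17 members (51.5%, against 50.6%), TGTCTC in 3 (9.09%, against 14.2%) and CACGTG in 0 (against 7.81%); these matches are letters in a window and were not tested for binding.

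XTH20 (AT5G48070) had the largest rise of the family in each of the 4 comparisons with 0 h except Col at 1 h, where XTH32 was 1.43 against its 1.42 on the log2 scale. In Ler it had 0.932, 1.28 and 1.13 CPM at 0 h, 15.5, 12.8 and 7.92 CPM at 1 h and 18.4, 32.2 and 27.9 CPM at 2 h. In Col it had 7.52, 2.04 and 5.35 CPM at 0 h, 15.3, 14.3 and 10.4 CPM at 1 h and 16.3, 20.9 and 29.8 CPM at 2 h. All 3 libraries of each later time lay above all 3 of 0 h in both ecotypes, and at 0 h every Ler library lay below every Col library. In Ler the rise was 10.8-fold at 1 h (3.43 ± 0.43 SE, adjusted p = 0.000176) and 23.3-fold at 2 h (4.54 ± 0.44 SE, adjusted p = 0.000110). In Col it was 2.68-fold at 1 h (1.42 ± 0.38 SE, adjusted p = 0.0236) and 4.49-fold at 2 h (2.17 ± 0.38 SE, adjusted p = 0.00791). The Col call at 1 h was lost without any 1 of replicate 3 of Col at 0 h or replicate 2 of Col at 1 h (adjusted p 0.0656 to 0.0808). Both Col calls were lost in fits of the contrasted Col libraries alone, while the Ler calls held in every fit that left out 1 library.

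The paralogs XTH19 (AT4G30290) and XTH17 (AT1G65310) fell at both times in both ecotypes. XTH19, expressed in the root elongation zone, had 113, 143 and 146 CPM in Ler at 0 h, 51.2, 56.9 and 62.5 CPM at 1 h and 93.0, 78.2 and 89.6 CPM at 2 h. The Col libraries of XTH19 were at 111, 151 and 148 CPM at 0 h, 59.3, 55.2 and 63.8 CPM at 1 h and 96.3, 92.9 and 81.7 CPM at 2 h. The course was a fall at 1 h and a partial return at 2 h, with no overlap between times in either ecotype. The fall at 1 h was 2.36-fold in Ler (-1.24 ± 0.14 SE, adjusted p = 7.56e-05) and 2.30-fold in Col (-1.20 ± 0.14 SE, adjusted p = 6.73e-05), and both calls held in every fit that left out 1 library. At 2 h XTH19 was still 1.54-fold lower in Ler (-0.63 ± 0.13 SE, adjusted p = 0.0193) and 1.51-fold lower in Col (-0.60 ± 0.13 SE, adjusted p = 0.0206). The Ler call at 2 h was lost without any 1 of replicates 2 and 3 of Ler at 0 h or replicates 2 and 3 of Ler at 2 h (adjusted p 0.0601 to 0.103). The Col call at 2 h was lost without any 1 of replicate 3 of Col at 0 h or replicates 2 and 3 of Col at 2 h (adjusted p 0.0647 to 0.0858). From 1 to 2 h it rose in Ler (0.61 ± 0.14 SE, adjusted p = 0.0399) and in Col (0.60 ± 0.14 SE, adjusted p = 0.0281). These calls were lost in Ler without any 1 of replicates 1 and 2 of Ler at 1 h or replicates 1 and 3 of Ler at 2 h (adjusted p 0.139 to 0.171). They were lost in Col without any 1 of replicates 1 and 2 of Col at 1 h or replicates 1 and 2 of Col at 2 h (adjusted p 0.0637 to 0.167). In fits of the contrasted libraries alone, the 2 h calls and the calls from 1 to 2 h were lost in both ecotypes.

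XTH17 stayed low at 2 h. In Ler it had 105, 118 and 108 CPM at 0 h, 50.4, 38.7 and 49.2 CPM at 1 h and 59.1, 23 and 59.7 CPM at 2 h. In Col it had 258, 281 and 258 CPM at 0 h, 191, 98.9 and 107 CPM at 1 h and 139, 129 and 103 CPM at 2 h. The later libraries of each ecotype lay below its 0 h libraries, while those of 1 h and 2 h overlapped. The log2 fold changes were -1.26 ± 0.30 SE, adjusted p = 0.0159 at 1 h and -1.23 ± 0.30 SE, adjusted p = 0.0362 at 2 h in Ler. In Col they were -1.01 ± 0.29 SE, adjusted p = 0.0365 at 1 h and -1.11 ± 0.29 SE, adjusted p = 0.0366 at 2 h. The Ler call at 1 h was lost without any 1 of replicate 2 of Ler at 0 h or replicate 2 of Ler at 1 h (adjusted p 0.0549 to 0.0806). At 2 h it was lost without any 1 of replicates 1, 2 and 3 of Ler at 0 h or replicates 2 and 3 of Ler at 2 h (adjusted p 0.0522 to 0.116). The Col call at 1 h was lost without any 1 of replicates 1, 2 and 3 of Col at 0 h or replicates 2 and 3 of Col at 1 h (adjusted p 0.0626 to 0.153). At 2 h that call was lost without any 1 of replicates 1 and 3 of Col at 0 h or replicates 1, 2 and 3 of Col at 2 h (adjusted p 0.0627 to 0.123). In a fit of the contrasted libraries alone the Ler call at 2 h and the Col call at 1 h were lost.

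XTH18 (AT4G30280) shares its proximal 73 bases with XTH17 and is the neighbour of XTH19, and it passed no comparison over time. It had 186, 153 and 171 CPM in Ler at 0 h, 256, 167 and 178 CPM at 1 h and 149, 85.5 and 172 CPM at 2 h. In Col XTH18 had 271, 214 and 243 CPM at 0 h, 374, 266 and 228 CPM at 1 h and 236, 128 and 143 CPM at 2 h. Its log2 change at 1 h was 0.24 ± 0.27 (SE) in Ler and 0.25 ± 0.27 (SE) in Col, both positive where those of XTH17 and XTH19 were negative, and its difference from these paralogs was not itself tested. Of the 50-base stretches of its exons, 1.70% occur elsewhere in the genome, as do 1.77% of those of XTH19. XTH18 and XTH19 share some of these stretches, so reads from the shared ones could be assigned to either gene.

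**Figure D3:**
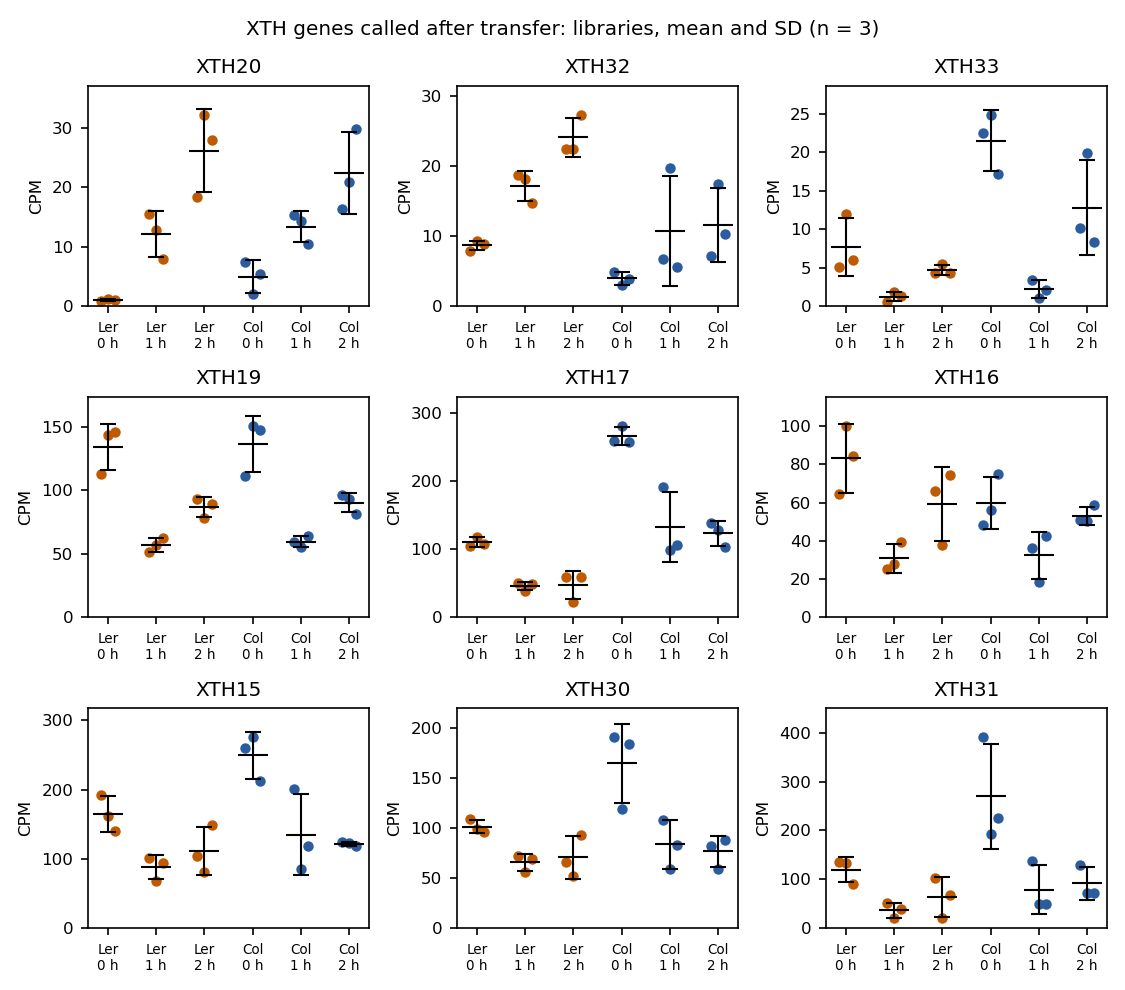
CPM of 9 XTH genes that passed at least 1 comparison with 0 h, in Ler at 0, 1 and 2 h (orange) and Col at 0, 1 and 2 h (blue); points are libraries, the long bar is the mean and the whiskers are the SD (n = 3). XTH20 and XTH32 climb with time, XTH33 and XTH19 are lowest at 1 h, and the means of XTH17, XTH15 and XTH30 at 2 h stay below those at 0 h.

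XTH33 (AT1G10550), a member with a predicted membrane anchor, fell at 1 h in both ecotypes and did not pass against 0 h at 2 h. It had 5.05, 12.0 and 6.05 CPM in Ler at 0 h, 0.592, 1.86 and 1.35 CPM at 1 h and 4.32, 5.53 and 4.29 CPM at 2 h. The Col libraries were at 22.5, 24.9 and 17.2 CPM at 0 h, 3.43, 1.14 and 2.13 CPM at 1 h and 10.2, 19.9 and 8.37 CPM at 2 h. All 1 h libraries lay below those of 0 h and of 2 h in both ecotypes. The fall at 1 h was 6.08-fold in Ler (-2.6 ± 0.47 SE, adjusted p = 0.00305) and 9.67-fold in Col (-3.27 ± 0.46 SE, adjusted p = 0.000414), and both held in every fit that left out 1 library. From 1 to 2 h it rose 5.75-fold in Col (2.52 ± 0.45 SE, adjusted p = 0.00784). A fit of the contrasted libraries alone did not keep that call. Its log2 change from 1 to 2 h was 1.89 ± 0.47 SE, adjusted p = 0.0646 in Ler. At 2 h its level did not pass against 0 h, with log2 changes of -0.71 ± 0.43 (SE) in Ler and -0.75 ± 0.42 (SE) in Col.

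XTH31 (AT3G44990) and XTH32 (AT2G36870) belong to the branch of the family with hydrolase activity, which XTH31 is known to show, and in Col at 1 h they changed in opposite directions. XTH32 had 7.93, 9.26 and 8.89 CPM in Ler at 0 h, 18.7, 18.2 and 14.8 CPM at 1 h and 22.5, 22.5 and 27.4 CPM at 2 h. The Col libraries of XTH32 were at 4.94, 3.08 and 3.91 CPM at 0 h, 6.78, 19.8 and 5.62 CPM at 1 h and 7.13, 17.4 and 10.3 CPM at 2 h. Every later library lay above the 0 h libraries of its ecotype, with replicate 2 of Col the highest of its group at 1 h and at 2 h. It rose in Col at 1 h (1.43 ± 0.40 SE, adjusted p = 0.0313) and at 2 h (1.54 ± 0.40 SE, adjusted p = 0.0348), while its log2 changes in Ler were 0.98 ± 0.39 SE, adjusted p = 0.161 at 1 h and 1.47 ± 0.39 SE, adjusted p = 0.0548 at 2 h. The Col call of XTH32 at 1 h was lost without any 1 of replicates 1, 2 and 3 of Col at 0 h or replicate 2 of Col at 1 h (adjusted p 0.0569 to 0.290). At 2 h its call was lost without any 1 of replicates 1, 2 and 3 of Col at 0 h or replicates 2 and 3 of Col at 2 h (adjusted p 0.0576 to 0.159). Without replicate 2 of Col at 1 h the log2 change there was 0.62. In fits of the contrasted libraries alone both Col calls were lost, and the Ler change at 2 h passed.

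XTH31, among the 10 highest members, had 135, 134 and 90.5 CPM in Ler at 0 h, 51.4, 20.8 and 39.4 CPM at 1 h and 103, 21.8 and 67.7 CPM at 2 h. In Col it had 392, 192 and 226 CPM at 0 h, 137, 49.8 and 50.3 CPM at 1 h and 130.4, 72.4 and 72.3 CPM at 2 h. Its libraries spread widely within groups, with replicate 1 the highest in each of the 6 groups. It fell in Col at 1 h (-1.77 ± 0.52 SE, adjusted p = 0.0403). That call was lost without any 1 of replicates 1 and 3 of Col at 0 h or replicates 2 and 3 of Col at 1 h (adjusted p 0.0602 to 0.162) and in a fit of the contrasted libraries alone. The other log2 changes were -1.69 ± 0.52 SE, adjusted p = 0.0682 in Ler at 1 h, -0.90 ± 0.51 SE, adjusted p = 0.447 in Ler at 2 h and -1.56 ± 0.52 SE, adjusted p = 0.0816 in Col at 2 h, and none of these passed.

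XTH15 (AT4G14130) and XTH16 (AT3G23730) are a pair with coding sequences 80.5% identical. XTH15 (also XTR7) had 192, 163 and 139.9 CPM in Ler at 0 h, 101, 69.0 and 94.3 CPM at 1 h and 105, 80.6 and 149 CPM at 2 h. In Col XTH15 had 260.0, 276 and 212 CPM at 0 h, 200.4, 86.3 and 119 CPM at 1 h and 125, 123 and 119 CPM at 2 h. The 1 h libraries lay below those of 0 h in both ecotypes. It fell in Col at 1 h (-0.88 ± 0.26 SE, adjusted p = 0.0425) and at 2 h (-1.03 ± 0.27 SE, adjusted p = 0.0334), and the log2 change in Ler at 1 h was -0.90 ± 0.27 SE, adjusted p = 0.0537. The Col call of XTH15 at 1 h was lost without any 1 of replicates 1 and 2 of Col at 0 h or replicates 2 and 3 of Col at 1 h (adjusted p 0.0811 to 0.164). At 2 h the call was lost without any 1 of replicates 1 and 3 of Col at 0 h or replicates 1, 2 and 3 of Col at 2 h (adjusted p 0.0617 to 0.105). The 1 h call was lost also in a fit of the contrasted libraries alone. XTH15 overlaps the gene AT4G14120 on the other strand by 382 bases, and the strand setting of the counting is not given in the sources used here, so its counts may hold reads of that gene. XTH16 had 64.6, 100.2 and 84.5 CPM in Ler at 0 h, 25.3, 28 and 39.5 CPM at 1 h and 66.0, 37.7 and 74.5 CPM at 2 h. It fell 2.69-fold in Ler at 1 h (-1.43 ± 0.30 SE, adjusted p = 0.00857), a call kept in every fit that left out 1 library. Its Col libraries were at 48.2, 56.0 and 74.8 CPM at 0 h, 36.3, 18.3 and 42.4 CPM at 1 h and 50.7, 50.4 and 58.7 CPM at 2 h, lowest at 1 h as in Ler, with a log2 change at 1 h of -0.88 ± 0.30 SE, adjusted p = 0.0705.

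XTH30 (AT1G32170), of the group that also holds XTH27 to XTH29, fell in Col at both times. It had 109, 99.8 and 96.3 CPM in Ler at 0 h, 72.0, 56.6 and 69.2 CPM at 1 h and 66.4, 52.3 and 93.8 CPM at 2 h. In Col XTH30 had 192, 119.8 and 184 CPM at 0 h, 109, 59.2 and 83.6 CPM at 1 h and 82.6, 59.4 and 88.5 CPM at 2 h. No later library overlapped those of 0 h in either ecotype. The Col changes were -0.98 ± 0.24 SE, adjusted p = 0.0171 at 1 h and -1.1 ± 0.25 SE, adjusted p = 0.0195 at 2 h on the log2 scale, and those in Ler, -0.63 ± 0.24 (SE) and -0.52 ± 0.24 (SE), did not pass. The Col call of XTH30 at 1 h was lost without any 1 of replicates 1 and 3 of Col at 0 h or replicate 2 of Col at 1 h (adjusted p 0.0551 to 0.0795). At 2 h the XTH30 call was lost without any 1 of replicates 1 and 3 of Col at 0 h or replicate 2 of Col at 2 h (adjusted p 0.0693 to 0.0900). Both were lost in fits of the contrasted libraries alone.

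XTH12 (AT5G57530), XTH13 (AT5G57540), XTH14 (AT4G25820) and XTH26 (AT4G28850) are the members known from root hairs and the adjoining epidermis, and in Ler all 4 had their highest mean levels at 2 h. XTH12 had 67.7, 70.1 and 58.3 CPM in Ler at 0 h, 59.0, 40.7 and 52.8 CPM at 1 h and 134, 106 and 135 CPM at 2 h. XTH13, 89.4% identical to XTH12 in coding sequence, had 36.3, 32.4 and 24.5 CPM, 40.0, 23.1 and 32.1 CPM and 90.3, 61.5 and 75.1 CPM at the same times. The 2 h libraries of both genes lay above all earlier Ler libraries. XTH13 rose 2.43-fold in Ler from 0 to 2 h (1.28 ± 0.32 SE, adjusted p = 0.0465). That call was lost when any 1 of the 6 libraries of replicates 1, 2 and 3 at 0 h or 2 h was left out, with adjusted p of 0.0586 to 0.192. XTH12 rose 2.46-fold in Ler from 1 to 2 h (1.3 ± 0.25 SE, adjusted p = 0.0195). That call was lost without any 1 of replicate 2 of Ler at 1 h or replicates 1 and 3 of Ler at 2 h (adjusted p 0.0602 to 0.109). Its log2 change from 0 to 2 h was 0.93 ± 0.25 SE, adjusted p = 0.0554. XTH14 had 241, 181 and 181 CPM in Ler at 0 h, 215, 118 and 151 CPM at 1 h and 318, 187 and 369 CPM at 2 h. XTH26 had 17.4, 9.40 and 7.00 CPM, 20.3, 7.49 and 9.99 CPM and 56.2, 19.8 and 36.9 CPM. For these genes the Ler times overlapped in XTH14 and not, between 0 and 2 h, in XTH26, and neither passed, with log2 changes from 0 to 2 h of 0.54 ± 0.30 SE, adjusted p = 0.438 for XTH14 and 1.74 ± 0.54 SE, adjusted p = 0.10 for XTH26.

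Of the same 4 genes only XTH13, from 0 to 2 h, and XTH12, from 1 to 2 h, passed a comparison over time in Ler. In Col none of the 4 passed one. XTH12 had 144, 71.0 and 91.7 CPM at 0 h, 84.7, 51.4 and 45.4 CPM at 1 h and 70.0, 80.6 and 75.7 CPM at 2 h. XTH13 had 78.0, 40.9 and 37.6 CPM, 58.6, 32.5 and 29.3 CPM and 40.8, 70.4 and 46.4 CPM. XTH14 was at 506, 298 and 369 CPM at 0 h, 332, 172 and 179 CPM at 1 h and 289.8, 211 and 224 CPM at 2 h. XTH26 was at 121, 44.0 and 44.8 CPM, 76.3, 29 and 28.4 CPM and 68.6, 54.5 and 56.6 CPM. Replicate 1 of Col at 0 h was the highest of its group for each of the 4 genes. The log2 changes in Col from 0 to 2 h lay between -0.69 for XTH14 and 0.01 for XTH13, and none passed.

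The start regions of XTH12, XTH13 and XTH14 share an exact run of 11 bases, TCCACGAACCT, picked out after these windows had been compared. Only exact runs were searched, so likeness with mismatches is not measured. The XTH14 window also holds tccacgaaact, close to the run but not identical, between the run and its annotated start. Printed here are 30 bases around the exact run in each gene, with capitals marking the run. They lie at chr5:23301663-23301692 on the minus strand for XTH12, chr5:23304146-23304175 on the minus strand for XTH13 and chr4:13130141-13130170 on the plus strand for XTH14 in TAIR10.1.
XTH12: tgatggaacTCCACGAACCTctctaatgca
XTH13: taatgggacTCCACGAACCTctctaatgca
XTH14: aaataatatTCCACGAACCTgtctatgttg
The run begins 6 bases after the annotated start of XTH12, 71 bases before that of XTH13 and 141 bases before that of XTH14. XTH12 and XTH13 share 23 bases around it, and the run is in 5 of 26539 windows of 300 bases (0.0188%), 3 of them in the family, and not in that of XTH26.

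Root hair marker genes, like these members, had their highest Ler sum at 2 h. The summed level of 6 root hair markers (RHD6, RSL4, COBL9, PRP3, LRX1 and PRPL1) was 486 to 642 CPM in Ler at 0 h, 421 to 642 at 1 h and 618 to 1074 at 2 h. It was 933 to 1033 CPM in Col at 0 h, 591 to 888 at 1 h and 721 to 785 at 2 h, with 0 of the 6 at 0 counts. At 2 h against 0 h in Ler all 6 had positive changes, with a median log2 change of 0.64. Of these 1 rose (2.19% of all features did), PRPL1, a proline-rich wall protein of hairs (0.92 ± 0.19 SE, edgeR adjusted p = 0.0158). At 1 h in Ler 1 rose (4.26% of all features did), RSL4, a regulator of hair growth (0.80 ± 0.16 SE, edgeR adjusted p = 0.00609). In Col at 1 h 1 fell (5.73% of all features did), COBL9, needed for hair tip growth (-0.56 ± 0.17 SE, edgeR adjusted p = 0.0460). The part of hair number or hair stage in the XTH results was not tested, and in these bulk samples fewer cells of a type and less RNA per cell cannot be told apart.

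**Figure D4:**
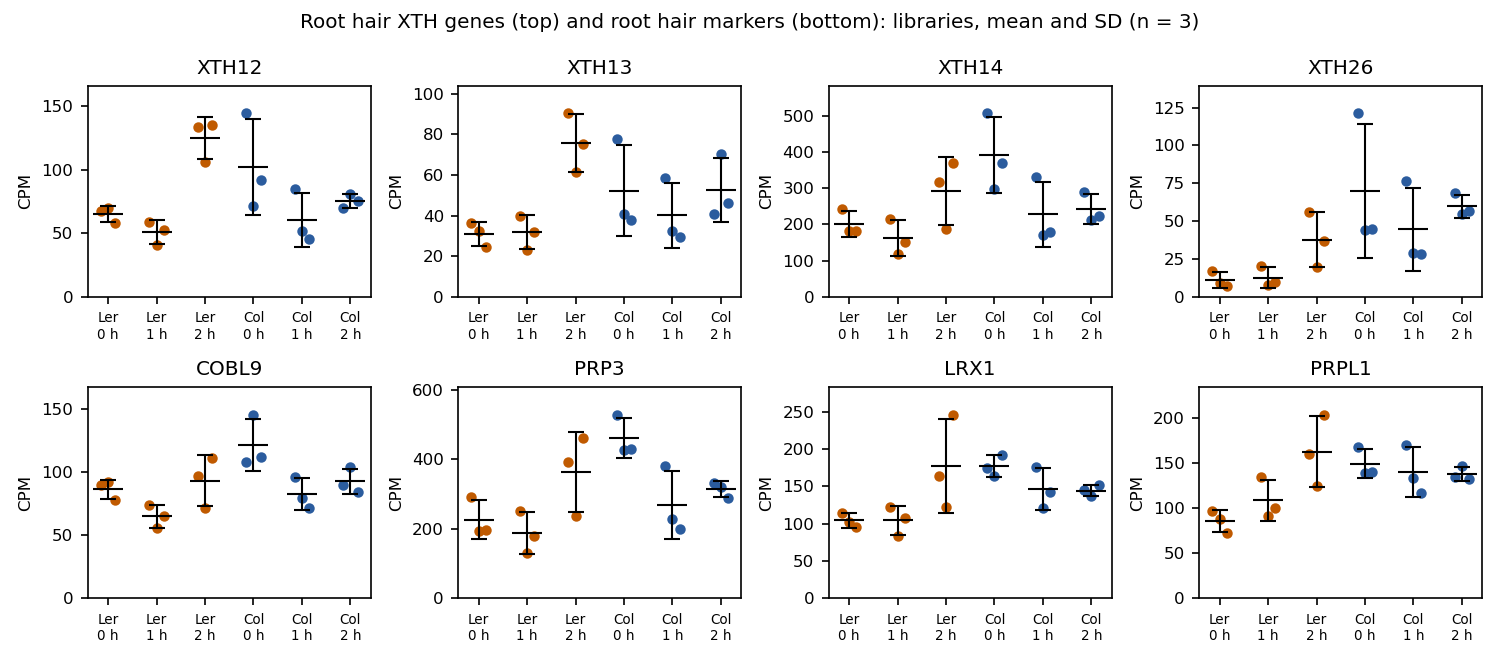
CPM of the 4 root hair XTH genes (top) and of 4 root hair markers (bottom) in Ler at 0, 1 and 2 h (orange) and Col at 0, 1 and 2 h (blue); points are libraries, the long bar is the mean and the whiskers are the SD (n = 3). XTH12 and XTH13 in Ler at 2 h lie above all earlier Ler libraries, and PRP3, LRX1 and PRPL1 have their highest Ler means at 2 h as well.

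The remaining tested members passed no comparison over time. XTH22 (TCH4, the touch-induced XTH) had 8.74, 6.39 and 2.84 CPM in Ler at 0 h, 7.47, 8.54 and 1.83 CPM at 1 h and 7.92, 2.48 and 5.43 CPM at 2 h. In Col XTH22 had 14.1, 6.30 and 3.00 CPM at 0 h, 12.3, 4.95 and 2.54 CPM at 1 h and 35.4, 4.28 and 10.4 CPM at 2 h. Its libraries overlapped between the times of each ecotype. Its log2 change in Col at 2 h was 1.1 ± 0.79 (SE). XTH23 (XTR6) was lowest at 1 h, with 9.44, 7.22 and 5.03 CPM in Ler at 0 h, 4.33, 2.75 and 2.46 CPM at 1 h and 6.93, 4.09 and 6.08 CPM at 2 h. In Col XTH23 had 25.5, 21.5 and 18.4 CPM, 18.4, 8.07 and 5.89 CPM and 23.7, 17.8 and 13.3 CPM, and its changes at 1 h were -1.18 ± 0.39 SE, adjusted p = 0.0844 in Ler and -1.02 ± 0.37 SE, adjusted p = 0.0910 in Col on the log2 scale. XTH21, needed for normal root elongation, was also lowest at 1 h, with 71.3, 86.4 and 67.6 CPM in Ler at 0 h, 51.7, 46.3 and 58.0 CPM at 1 h and 63.6, 63.4 and 76.2 CPM at 2 h. In Col XTH21 had 48.5, 70.0 and 58.4 CPM, 44.0, 30.3 and 43.3 CPM and 47.0, 69.2 and 48.7 CPM, and its log2 change at 1 h was -0.53 ± 0.18 SE, adjusted p = 0.104 in Ler and -0.59 ± 0.18 SE, adjusted p = 0.0505 in Col. Of the 50-base stretches of XTH21 exons, 7.82% occur elsewhere in the genome, the highest share in the family.

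XTH2 and XTH11 were near the limit of detection. XTH2 had 0.505, 0.380 and 0.510 CPM in Ler at 0 h, 0.111, 0.0388 and 0.207 CPM at 1 h and 0.0758, 0.0801 and 0.350 CPM at 2 h. In Col XTH2 had 0.350, 0.478 and 0.826 CPM at 0 h, 0.204, 0.110 and 0.135 CPM at 1 h and 0.324, 0.0830 and 0.0768 CPM at 2 h. Its later libraries lay below those of 0 h in both ecotypes, and its log2 change at 1 h was -1.90 ± 0.65 SE, adjusted p = 0.104 in Ler and -1.86 ± 0.64 SE, adjusted p = 0.0752 in Col. XTH11 had 0.466, 0.173 and 0.182 CPM in Ler at 0 h, 0.481, 0.310 and 0.588 CPM at 1 h and 2.2, 0.641 and 0.613 CPM at 2 h, with a log2 change from 0 to 2 h of 2.08 ± 0.55 SE, adjusted p = 0.0568. In Col XTH11 had 0.306, 0.174 and 0.304 CPM at 0 h, 0.694, 0.367 and 0.271 CPM at 1 h and 0.540, 0.623 and 0.423 CPM at 2 h. At these levels 1 library moves a group, as replicate 1 of Ler at 2 h does for XTH11. XTH7 lay between 0.0691 and 0.962 CPM over all libraries, and XTH10 between 2.82 and 5.09. XTH8 lay between 87.6 and 168 CPM, XTH27, a member known from leaf veins, between 51.8 and 87.6, and XTH28, known from stamens, between 13.5 and 23.1. XTH28 had 15.2, 15.2 and 14.5 CPM in Ler at 0 h against 21.4, 15 and 23.1 CPM in Col at 0 h, with a log2 difference of -0.41 ± 0.17 SE, adjusted p = 0.103. None of these 5 passed any of the 10 comparisons.

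XTH4 and XTH9, members known from growing stems and wood formation, and XTH5, the closest relative of XTH4, passed no comparison with 0 h. XTH4 had 93.1, 103 and 83.9 CPM in Ler at 0 h, 83.9, 69.7 and 71.4 CPM at 1 h and 81.5, 49.5 and 69.2 CPM at 2 h. In Col XTH4 had 159, 163 and 137 CPM at 0 h, 135, 86.0 and 120.2 CPM at 1 h and 137, 99.5 and 112 CPM at 2 h. XTH9 had 19.5, 21.0 and 24.3 CPM in Ler at 0 h, 11.1, 9.31 and 17.0 CPM at 1 h and 14.8, 11.1 and 16.1 CPM at 2 h. In Col XTH9 had 26.1, 22.4 and 26.6 CPM at 0 h, 18.3, 7.52 and 22.4 CPM at 1 h and 21.3, 19.0 and 28.2 CPM at 2 h. XTH5 had 24.1, 25.7 and 22.6 CPM in Ler at 0 h, 26.2, 25.0 and 28.1 CPM at 1 h and 23.6, 21.6 and 14.8 CPM at 2 h. In Col XTH5 had 44.9, 77.7 and 39.0 CPM at 0 h, 47.8, 56.4 and 57.7 CPM at 1 h and 59.4, 69.8 and 59.3 CPM at 2 h. The log2 change against 0 h farthest from 0 was -0.79 for XTH9, in Ler at 1 h, and -0.48 for XTH4, in Ler at 2 h. Between the ecotypes XTH5 did not overlap, since its 9 Ler libraries all lay below its 9 Col libraries.

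Whether the ecotypes responded differently was tested as the Ler change minus the Col change. Without a term for the replicate number, no member passed in edgeR at 1 h (0.00485% of all features passed) or at 2 h (0% of all features passed), and 1 and 5 members had an unadjusted p under 0.05. The largest difference was that of XTH20, whose log2 change was larger in Ler by 2.01 ± 0.56 SE, adjusted p = 0.924 at 1 h and by 2.38 ± 0.55 SE, adjusted p = 0.227 at 2 h. For the root hair members the difference at 2 h was 1.37 ± 0.35 SE, adjusted p = 0.227 for XTH12, 1.27 ± 0.45 SE, adjusted p = 0.230 for XTH13, 1.23 ± 0.43 SE, adjusted p = 0.227 for XTH14 and 1.97 ± 0.74 SE, adjusted p = 0.236 for XTH26, each change being the higher one in Ler. DESeq2 called 0 members at 1 h (0.109% of all features) and 2 at 2 h, XTH20 and XTH12 (0.621% of all features). Without replicate 2 of Col at 0 h edgeR called XTH12, XTH20 and XTH5 at 2 h, and the share of all features in that fit is not given here. XTH5 went the other way, with a mean at 2 h below that of 0 h in Ler and above it in Col. For XTH5 the library left out held the highest Col level.

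At 0 h the family was lower in Ler than in Col. Of the 28 tested members 8 were lower in Ler (28.6%, against 9.14% of all features) and 0 were higher (8.55% of all features were, and 17.7% passed in either direction), with a median log2 difference of -0.56, beside 0.01 over all features. The largest difference was in XTH26, the root hair member, 6.22-fold lower in Ler (-2.64 ± 0.55 SE, adjusted p = 0.00317). XTH20 was 4.44-fold lower (-2.15 ± 0.42 SE, adjusted p = 0.00213), XTH23 3.02-fold (-1.59 ± 0.38 SE, adjusted p = 0.00762) and XTH17 2.40-fold (-1.27 ± 0.29 SE, adjusted p = 0.00687). XTH5 was lower by 1.16 ± 0.21 (SE, adjusted p = 0.00119) on the log2 scale and all 5 of these calls held in every fit that left out 1 library. XTH33 (-1.48 ± 0.42 SE, adjusted p = 0.0244), XTH14 (-0.96 ± 0.30 SE, adjusted p = 0.0399) and XTH4 (-0.71 ± 0.19 SE, adjusted p = 0.0147) were lower as well. The XTH33 call was lost without any 1 of replicates 1 and 3 of Ler at 0 h or replicates 1 and 2 of Col at 0 h (adjusted p 0.0535 to 0.105). The XTH14 call was lost without any 1 of replicates 2 and 3 of Ler at 0 h or replicates 1 and 3 of Col at 0 h (adjusted p 0.0658 to 0.165). The XTH4 call was lost without replicate 3 of Ler at 0 h (adjusted p 0.0716).

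Averaged over the 3 times, 13 members differed between the ecotypes (46.4%, against 32.7% of all features), 11 of them lower in Ler (39.3%, against 16.1% of all features) and 2 higher (7.14%, against 16.5%). The median log2 difference was -0.31, beside 0.00 over all features. XTH26 (-1.71 ± 0.31 SE, adjusted p = 0.000411), XTH23 (-1.68 ± 0.22 SE, adjusted p = 2e-05), XTH17 (-1.39 ± 0.17 SE, adjusted p = 9.51e-06), XTH5 (-1.28 ± 0.12 SE, adjusted p = 6.39e-07), XTH33 (-1.24 ± 0.26 SE, adjusted p = 0.00139) and XTH4 (-0.70 ± 0.11 SE, adjusted p = 9.32e-05) were lower in Ler in every fit that left out 1 library. The 2 higher members, XTH32 (0.95 ± 0.22 SE, adjusted p = 0.00370) and XTH21 (0.35 ± 0.11 SE, adjusted p = 0.0171), also held in all of those fits. XTH31, XTH20, XTH18, XTH15 and XTH30 were lower in Ler by 0.92, 0.69, 0.45, 0.45 and 0.39 on the log2 scale. The edgeR adjusted p were 0.0250, 0.0248, 0.0349, 0.0330 and 0.0445. For XTH20 the average covers times that differ, with means of 1.11, 12.1 and 26.2 CPM in Ler and 4.97, 13.3 and 22.4 CPM in Col at 0, 1 and 2 h, so that the Ler mean was the higher one at 2 h. Each of these 5 calls was lost in at least 1 fit that left out 1 library. That of XTH31 was lost without any 1 of replicate 3 of Ler at 0 h, replicate 1 of Col at 0 h, replicate 1 of Col at 1 h or replicate 1 of Col at 2 h (adjusted p 0.0521 to 0.0650). That of XTH20 was lost without any 1 of replicate 1 of Col at 0 h or replicate 3 of Col at 2 h (adjusted p 0.0520 to 0.0623). The call of XTH18 was lost without any 1 of replicates 2 and 3 of Ler at 0 h, replicates 2 and 3 of Ler at 1 h, replicate 2 of Ler at 2 h, replicate 1 of Col at 0 h, replicate 1 of Col at 1 h or replicate 1 of Col at 2 h (adjusted p 0.0550 to 0.0784). For XTH15 it was lost without any 1 of replicates 2 and 3 of Ler at 0 h, replicate 2 of Ler at 1 h, replicates 1 and 2 of Ler at 2 h, replicates 1 and 2 of Col at 0 h, replicate 1 of Col at 1 h or replicates 1 and 2 of Col at 2 h (adjusted p 0.0517 to 0.0702). For XTH30 it was lost without any 1 of replicates 2 and 3 of Ler at 0 h, replicates 2 and 3 of Ler at 1 h, replicates 1 and 2 of Ler at 2 h, replicates 1 and 3 of Col at 0 h, replicates 1 and 3 of Col at 1 h or replicates 1 and 3 of Col at 2 h (adjusted p 0.0575 to 0.0992). XTH19, the neighbour of XTH18, had an ecotype difference of -0.05 ± 0.08 (SE), which did not pass.

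**Figure D5:**
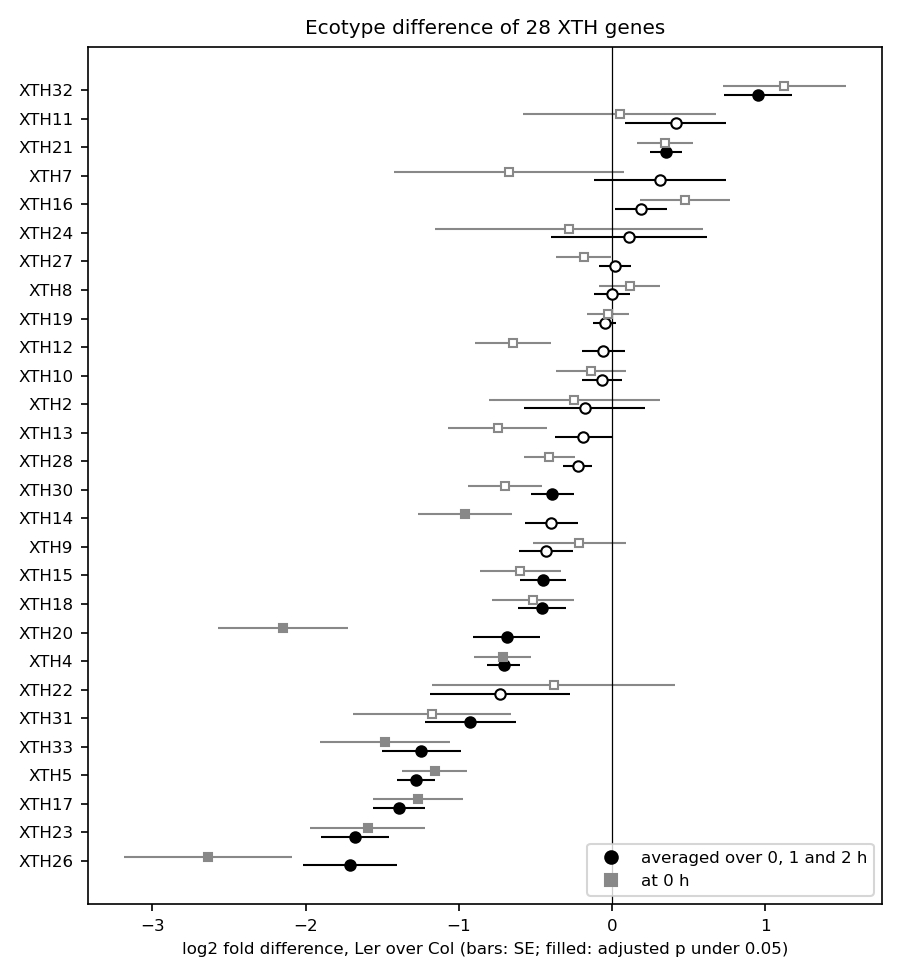
Log2 fold difference of Ler over Col for the 28 tested XTH genes, at 0 h (grey squares) and averaged over 0, 1 and 2 h (black circles), from edgeR; bars are the SE and filled symbols have an adjusted p under 0.05. Most symbols lie left of 0, XTH32 and XTH21 lie to the right, and XTH20 and XTH26 differ more at 0 h, by 2.15 and 2.64, than on average.

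Markers of root cell types also differed between the ecotypes at 0 h. Of the 6 root hair markers 4 were lower in Ler and of 5 Casparian strip markers of the endodermis (CASP1 to CASP5) 3 were lower, where 9.14% of all features were. Of 7 meristem markers 1 was higher in Ler and 0 were lower. Of 6 tested photosynthetic shoot genes 2 were higher and 0 lower, where 8.55% of all features were higher. CASP1 was lower by 1.29 ± 0.31 (SE, adjusted p = 0.00912) on the log2 scale. The summed level of the CASP genes was 308 to 365 CPM in Ler at 0 h, 176 to 284 at 1 h and 228 to 429 at 2 h. It was 573 to 875 CPM in Col at 0 h, 341 to 719 at 1 h and 338 to 406 at 2 h. CASP5 fell in Col at 2 h (-1.92 ± 0.34 SE, adjusted p = 0.00801). Of 7 meristem markers the summed level was 170 to 186 CPM in Ler at 0 h, 195 to 199 at 1 h and 160 to 176 at 2 h. It was 147 to 174 CPM in Col at 0 h, 182 to 214 at 1 h and 185 to 208 at 2 h. Against 0 h, 2 meristem markers rose in Col at 1 h (5.35% of all features did) and 3 at 2 h (2.93% did). In Ler 1 rose at 1 h (4.26% of all features did). At 2 h in Ler 1 rose (2.19% did) and 1 fell (0.607% did). Every marker of these 3 root lists had counts in all groups, and 9 photosynthetic shoot genes together gave 17.4 to 120.0 CPM, with 1 or 2 of the 9 at 0 counts. Whether the makeup of the apices has a part in the XTH differences was not tested, and whether Ler reads were aligned to a Col sequence is not given in the sources used here.

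Other genes of wall loosening and of xyloglucan itself were set beside the family. Expansins loosen walls at acid pH without cutting them, and of 26 alpha-expansins 16 were tested. In Ler at 1 h 4 rose (4.26% of all features did) and 1 fell (2.55% did), and in Col at 1 h 4 rose (5.35% did) and 1 fell (5.73% did). Among those that rose were EXPA1 (2.09 in Ler and 2.27 in Col on the log2 scale), EXPA17 (1.48 and 1.27) and EXPA9 (0.97 and 1.16), and EXPA11 (-0.51 and -0.40) fell. At 2 h 2 expansins in Ler (2.19% of all features were) and 4 in Col (2.93% were) were higher and 0 lower in edgeR, where 7 and 5 had an unadjusted p under 0.05. The median log2 change of the tested expansins at 1 h was 0.44 in Ler and 0.21 in Col, positive where that of the XTH members was negative. EXPA1 had 7.23, 6.56 and 5.72 CPM in Ler at 0 h, 34.3, 26.0 and 22.8 CPM at 1 h and 18.3, 23 and 10.8 CPM at 2 h, so that all later libraries lay above those of 0 h.

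Of 14 tested genes that make xyloglucan, 1 passed in Ler at 1 h (6.82% of all features did), 0 in Ler at 2 h (2.8% did, and 2 of the 14 had an unadjusted p under 0.05), 1 in Col at 1 h (11.1% did) and 1 in Col at 2 h (6.39% did). CSLC4, the synthase of the glucan backbone, fell in Ler at 1 h (-0.55 ± 0.10 SE, adjusted p = 0.00376) and rose from 1 to 2 h in Ler (0.52 ± 0.10 SE, adjusted p = 0.0225) and in Col (0.61 ± 0.10 SE, adjusted p = 0.00496), and XLT2, a galactosyltransferase of the side chains, rose in Col at 1 h (0.68 ± 0.16 SE, adjusted p = 0.0125). CSLC4 was also higher in Col at 2 h than at 0 h (0.37 ± 0.10 SE, adjusted p = 0.0428). Of 3 enzymes that trim the side chains, the fucosidase AXY8 fell in Col at 1 h (-0.87 ± 0.12 SE, adjusted p = 0.000357) and in Ler at 2 h (-0.49 ± 0.12 SE, adjusted p = 0.0386), and it was lower in Ler than in Col at 0 h by 1.04 ± 0.12 (SE, adjusted p = 1.56e-05) on the log2 scale.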

How the data were processed

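Poly(A) RNA of root apices from 18 libraries was sequenced as stranded paired-end reads, per the labels' protocols. The deposited values are whole-number counts per gene made by the authors. The submitters' processing notes name TopHat2, Bowtie2 and the TAIR10 genome, with no versions or roles. The counting tool, its strand setting and its handling of reads with several matches are not given in the sources used here.

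The 32852 features present in all libraries were filtered with filterByExpr (minimum count 10, minimum total 15), which left 20599 and removed 12253. They were fitted with edgeR 4.0.16 (R 4.3.3, limma 3.58.1; quasi-likelihood test, TMM scaling, 12 residual degrees of freedom) in 1 model of 6 groups, without a replicate term. P-values were adjusted by Benjamini-Hochberg within each comparison, with a threshold of 0.05. SEs were derived from each log2 value and its F statistic. Exon lengths, coding sequences and windows came from the RefSeq annotation of TAIR10.1. In data simulated for Col at 1 h against 0 h over 20208 features, 67% of 100 features changed by 1 and 98% of 100 changed by 2 on the log2 scale were recovered, with 5 false calls. The changed features averaged at least 1 CPM at 0 h, so members below that level are not covered. The simulated spread followed the trend with level, not each gene's own spread, and held no effect of the replicate number. Alternatives were DESeq2 1.42.0, its size factors, other filters, a replicate term, fits of the contrasted libraries alone and leaving out each library.

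The members are XTH1 to XTH33 by locus. Members called in any comparison with or without the replicate term are given by library, the others by range. Genes of the other lists are named where they were called and averaged at least 5 CPM. Members and lists were chosen with earlier results of these data known. The floor of 3 counts covers counting error only, whereas SEs and SDs also hold the spread between libraries.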

Additional observations from a re-analysis of the deposited data

How the results depend on the processing

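Over 1310 alternative values of single members 0 reversed in direction. Of 48 called member results, 48 held with other size factors, with DESeq2, with no filter and with a replicate term. With a minimum mean of 1 CPM 47 held, and 22 held in every fit that left out 1 library. DESeq2 called 8 members in Ler at 1 h (9.15% of all features with an adjusted p), 8 at 2 h (5.73%), 6 from 1 to 2 h (4.01%) and 2 in the difference of responses at 2 h (0.621%). Fits of the contrasted libraries alone kept 20 of 35 calls, with 9 members in Ler at 1 h (7.64% of all features), 1 in Ler from 1 to 2 h (0.626%), and 2 in Col at 1 h (4.03%), 2 at 2 h (1.89%) and 0 from 1 to 2 h (0.335%). The cause was not tested, beyond the fewer libraries in such fits.

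Leaving out 1 library gave 4 to 5 members in Ler at 1 h, 1 to 3 at 2 h and 0 to 2 from 1 to 2 h. In Col it gave 2 to 12 at 1 h, 1 to 7 at 2 h and 1 to 2 from 1 to 2 h. Between Ler and Col it gave 5 to 10 at 0 h and 8 to 14 averaged over time, and in the difference of responses 0 to 0 at 1 h and 0 to 3 at 2 h. The shares of all features called in these fits are not given here. Whether the ranges follow the number of calls over all features was not tested.

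The labels give the groups the same replicate numbers without saying what a number shares. Deviations from the group means correlated over 0.1 in 41 of 45 pairs of libraries with the same number (mean 0.352, lowest 0.0057), against 11 of 90 pairs with different numbers (mean -0.174), and 18 of 18 libraries had their highest mean correlation with their own number, a hint from the data and not from the design. With a replicate block, 11 members were called in Ler at 1 h, 11 at 2 h and 8 from 1 to 2 h, 17 in Col at 1 h, 11 at 2 h and 4 from 1 to 2 h, 14 between Ler and Col at 0 h and 2 in the difference of responses at 2 h (XTH14 and XTH26, edgeR adjusted p 0.0477 and 0.0465). Over all features the block called 21.7% in Col at 1 h, 22.1% at 2 h and 5.65% from 1 to 2 h, 14.5% in Ler at 1 h, 8.86% at 2 h and 7.62% from 1 to 2 h, 30.1% between Ler and Col at 0 h and 43.4% averaged over time (16 members), and in the difference of responses 0.0291% at 1 h (0 members) and 0.384% at 2 h. The spread between libraries, as a common coefficient, was 14.8% with the block and 21.5% without it. Members averaging under 1 CPM (XTH2, XTH7 and XTH11 among those tested) rest on few counts, and XTH2 and XTH11 were called with the block and not without it.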

Other observations

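XTH24 (also MERI5), the neighbour of XTH18, had the same order of replicates in all 6 groups, with replicate 1 the highest, then 3, then 2. It had 124, 24.4 and 54.0 CPM in Ler at 0 h, 73.7, 22.0 and 39.3 CPM at 1 h and 84.6, 15.9 and 58.9 CPM at 2 h. In Col XTH24 had 146, 22.4 and 78.0 CPM at 0 h, 75.7, 18.4 and 24.6 CPM at 1 h and 77.6, 5.85 and 35.1 CPM at 2 h. Among the 25 members averaging at least 1 CPM it was the 1 with a single order in all groups, and 264 of 18753 features at that level (1.41%) had one. XTH24 was chosen after its values were seen, and what the replicate numbers share was not tested.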
